A study of Homo sapiens with 18 samples.

Results

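The solute carrier (SLC) genes were taken by name: all protein-coding genes of the deposited table whose symbol is SLC followed by a digit, without SLC2A1, SLC7A1 and SLC7A11. This gave 207 of the 15258 genes of the table, from 46 families. Messenger RNA was measured by RNA-seq in MEL624, an established human melanoma cell line, in 3 lines grown without a treatment in DMEM with serum. The control line is wild type for PCIF1 and carries a random sgRNA, and KO1 and KO2 are PCIF1 knockouts, each derived as 1 clone. Each line has replicates A, B and C, which gives 9 input libraries, and the 9 m6A-immunoprecipitated libraries of the same lines are not analysed here. PCIF1 methylates a capped mRNA's first base where that base is adenosine, so that the comparison asks how transcript levels differ where that methylation is lost. There is 1 control line and 1 clone per knockout, so that p-values rest on the spread among libraries within a line, and independent edits were not sampled beyond these clones.

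SLC proteins are membrane proteins that move small molecules across the plasma membrane and the membranes of organelles, mostly as uniporters, symporters driven by sodium or protons, and exchangers. Together they set the supply of amino acids, sugars, nucleotides, vitamins and metals, the export of lactate and protons, and the traffic of metabolites into mitochondria and the Golgi. In melanoma and other tumour cells the best known are the glutamine and leucine carriers SLC1A5 and SLC7A5 and the lactate carriers SLC16A1 and SLC16A3, and pigment cells also use SLC carriers of the melanosome membrane. The melanosome carriers SLC24A5, SLC45A2 and SLC24A4 have no row among the genes used here and are not analysed here.

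PCIF1 mRNA was at 57.6 ± 3.84 TPM (TPM is the share of transcripts scaled to a fixed total, SD, n = 3) in control, 24 ± 1.77 TPM in KO1, with 60.3 ± 3.86 TPM for KO2. Its log2 fold change was -1.26 in KO1 (limma adjusted p = 1.65e-06), a decrease, and 0.07 in KO2 (limma adjusted p = 0.542). Permuting 3 against 3 libraries exactly, two-sided, gave p = 0.1 for KO1, the smallest this design allows, and p = 0.5 for KO2. A gene-level read count does not see an edit that leaves the transcript in place, so that it does not check the genotype of KO2. Reads counted on genes ranged from 7848089 to 11393206 per library. Of 14 melanocyte lineage markers, 4 are among the genes of the table, namely MITF, ERBB3, RAB38 and PAX3, and the defining markers PMEL, MLANA, TYR and SOX10 have no row. The summed level of these 4 was 63.8 to 71.8 TPM in control, 71.7 to 77.2 TPM in KO1 and 94.5 to 103.0 TPM in KO2. The 4 did not move together. ERBB3, a growth factor receptor of the lineage, was at 3.56 TPM in control and fell to 0.81 TPM in KO1 and 0.959 TPM in KO2 (log2 -2.16 and -1.91, limma adjusted p = 0.000106 and 0.000195), while RAB38 and PAX3 rose in both clones. MITF, the lineage's main transcription factor, was at 37.1 TPM in control, 26.3 in KO1 and 50 TPM in KO2. None of 4 leukocyte markers has a row, and 1 of 5 endothelial, 1 of 5 epithelial and 3 of 5 fibroblast markers do. The sums of the endothelial and fibroblast markers stayed under 5 and 14 TPM in each library, and the epithelial one is KRT18, at 761 to 993 TPM in single libraries, lower in both clones. Within these low sums ESAM rose by 1.13 and 1.37 (limma adjusted p = 0.0099 and 0.00382), LUM went from 1 read in control to 57 in KO1 and 26 in KO2, and PDGFRB fell by 0.28 and 0.36 (limma adjusted p = 0.0193 and 0.00596). The part of these markers and of lineage state in the SLC values was not tested, and in such bulk samples fewer cells of a type and less RNA per cell cannot be told apart.

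Because PCIF1 acts on mRNAs whose first transcribed base is adenosine, the bases around the annotated start are shown for 11 members that the results below turn on. Each line gives 30 bases of RefSeq sequence on build GRCh38.p14, 5′ to 3′ on the gene's strand, with 15 bases before the start, the start base in capitals and 14 bases after it. The windows of the members with an A start lie at chr18:36129326-36129355 on the minus strand (SLC39A6), chr2:219631042-219631071 on the plus strand (SLC4A3), chr2:64988464-64988493 on the plus strand (SLC1A4), chr16:87869493-87869522 on the minus strand (SLC7A5) and chr9:113221529-113221558 on the plus strand (SLC31A1). Those with a G start lie at chr12:46266502-46266531 on the minus strand (SLC38A1), chr5:149960743-149960772 on the plus strand (SLC26A2), chr4:185143251-185143280 on the plus strand (SLC25A4), chr1:205680495-205680524 on the minus strand (SLC45A3), chr17:82228420-82228449 on the plus strand (SLC16A3) and chr5:36596573-36596602 on the plus strand (SLC1A3).
SLC39A6: cgcgcggcggtaattAgtgattgtcttcca
SLC4A3: ggagggcgtgtttacAgacccagggtgggg
SLC1A4: gcgtcttaaacgcccAtaccgcagacagct
SLC7A5: cgggcggggttcctgAcgcagctgcgggcg
SLC31A1: gcgggagggggcgggAaatcctcggcctcg
SLC38A1: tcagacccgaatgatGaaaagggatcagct
SLC26A2: gcctcggccgcgggcGtttacactggctct
SLC25A4: tgcgggccaggcggcGgccccctagcgtcg
SLC45A3: atgctctctccccccGcggagtaacctgga
SLC16A3: aagttcagggagggcGaggccgtgccccac
SLC1A3: gggaaaaaaatctctGaatcctttgggatt
Both start bases occur among members that rose and among members that fell. A RefSeq start was matched for 154 tested members, of which 76 (49.4%) start with A and 62 (40.3%) with G, against 45.1% and 41.1% of 10318 tested genes. Annotated starts are single positions, and the starts used in MEL624 were not measured.

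Nearly all SLC genes of the table were transcribed at a measurable level in MEL624, as were most genes of the table. SLC genes without a row are not counted here. A mean of at least 1 TPM over the 9 libraries, the minimum for a test, was reached by 191 members, and 16 stayed below it. The median member had 15.6 TPM, beside 17.6 TPM over all genes of the table, and 130 members reached 10 TPM and 20 reached 100 TPM. Together the members held 8830 to 8950 TPM in the control libraries, 9300 to 9490 in KO1 and 9030 to 9200 in KO2, which is 0.883% to 0.949% of all TPM. The highest was SLC25A5, the main ADP/ATP exchanger of the mitochondrial inner membrane in dividing cells, with a mean over libraries of 1510 TPM and rank 49 in the table. It was followed by SLC7A5 at 607 TPM, the large neutral amino acid exchanger, and SLC1A5 at 542 TPM, the glutamine carrier. SLC3A2, the heavy chain that SLC7A5 needs at the membrane, was at 204 TPM, and SLC20A1, a sodium-phosphate cotransporter, at 196 TPM.

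**Figure D1:**
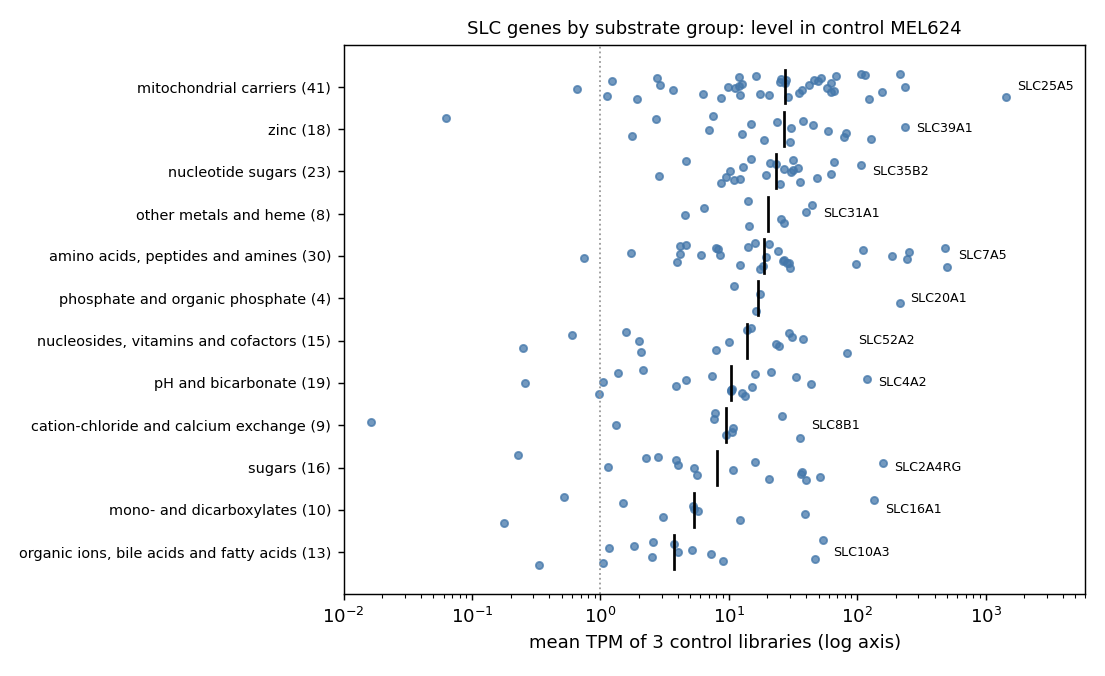
Mean TPM of the 3 control libraries (log axis) of each SLC gene, by substrate group, with the number of genes of the group in brackets, a black bar at its median and the name of its highest gene. The dotted line marks 1 TPM. SLC25A5 stands alone above 1000 TPM, and SLC2A4RG, the highest gene grouped with the sugar carriers, belongs there by symbol only and is no carrier.

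Against control, 65 of the 191 tested members were called in KO1 (limma adjusted p under 0.05), 38 higher and 27 lower, which is 34%. Over all 14512 tested genes the share was 34.3%, with 20.2% higher and 14.1% lower. In KO2, 67 members were called, 32 higher and 35 lower, which is 35.1%, beside 30.4% of all tested genes, of which 15.6% were higher and 14.8% lower. In both clones and in the same direction 19 members were higher and 13 lower, which is 9.95% and 6.81% of members, beside 8.47% and 7.26% of all tested genes. The shares called among SLC genes thus lay near those of all tested genes. In each of these 32 members the control libraries overlapped with neither clone's. The same libraries gave the calls, so that this adds no separate support, and it was not counted over all tested genes. SLC1A3 and SLC5A3 were called in both clones in opposite directions, beside 1.34% of all tested genes. The clones differed directly, KO2 against KO1, in 61 members, 22 higher and 39 lower in KO2, which is 31.9%, beside 28.7% of all tested genes, with 11.8% higher and 16.9% lower. Most changes were small: 58 of the 65 calls in KO1 and 59 of the 67 in KO2 were within 2-fold. The median absolute log2 fold change was 0.18 for members in each clone, beside 0.19 in KO1 and 0.17 in KO2 over all tested genes. Beyond 2-fold in both clones were 3 members, SLC13A3 upward and SLC39A6 and SLC4A11 downward. After median centring, the calls in KO1 split into 32 higher and 37 lower, so that the excess of higher calls in KO1 depends on the scaling.

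**Figure D2:**
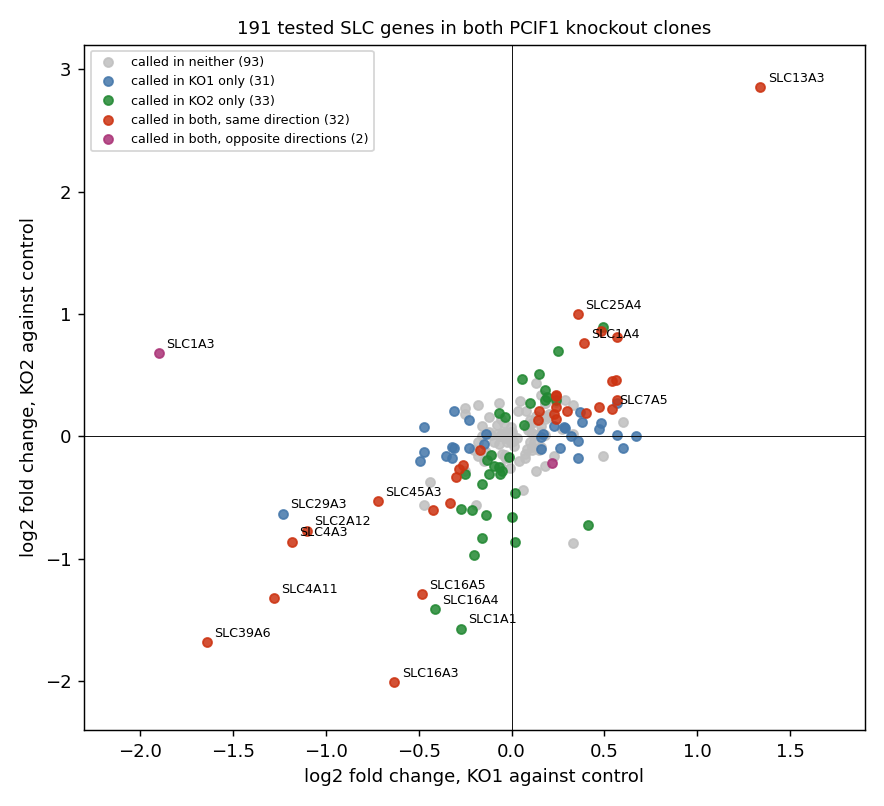
Log2 fold change of the 191 tested SLC genes in KO1 (horizontal) and KO2 (vertical) against control, coloured by which clone they were called in. SLC13A3 is highest in both clones, SLC39A6 is far down in both by the same amount, SLC16A3 is far down in KO2, and SLC1A3 lies in the quadrant lower in KO1 and higher in KO2. Both axes use the same control libraries.

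Among carriers of amino acids, peptides and amines, more members rose than fell in both clones. Of 29 tested, KO1 had 11 higher and 3 lower and KO2 had 8 higher and 3 lower. The larger count stayed on the higher side under each alternative analysis, with 8 higher and 5 lower in KO1 after median centring. The share called higher was 37.9% in KO1 and 27.6% in KO2, above the 20.2% and 15.6% of all tested genes. The group's median log2 fold change was 0.09 in KO1 and 0.05 in KO2, so that the typical member hardly moved. Members called higher in both clones were SLC7A5, SLC1A5, SLC38A1, SLC1A4 and SLC66A2, the last lost in KO1 under 14 of 21 alternatives, and none was called lower in both.

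SLC38A1, a sodium-coupled glutamine and alanine carrier, had 113, 110 and 107 TPM in the control libraries, 158, 158 and 166 TPM in KO1 and 148, 147 and 156 TPM in KO2. Every knockout library lay above every control library. It rose 1.46-fold in KO1 (log2 fold change 0.54, SE 0.0394, limma adjusted p = 7.34e-06) and 1.36-fold in KO2 (0.45, limma adjusted p = 2.26e-05). Its neighbour on chromosome 12, the related carrier SLC38A2, moved less, by 0.17 in KO1 and 0.016 in KO2, and its KO1 call was lost under 9 of 21 alternatives. SLC1A4, a neutral amino acid exchanger, had 14.1, 13.5 and 14.5 TPM in control, 19, 17.9 and 18.4 TPM in KO1 and 22.7, 25.2 and 23.7 TPM in KO2. The 3 lines did not overlap, with KO2 highest. It rose 1.31-fold in KO1 and 1.7-fold in KO2, and KO2 was above KO1 by 0.37 (log2, limma adjusted p = 0.00241).

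SLC7A5, which exchanges glutamine for leucine and other large amino acids, had 507, 473 and 531 TPM in control, 769, 681 and 741 TPM in KO1 and 582, 615 and 566 TPM in KO2. KO1 was highest, KO2 lay between, and the lines did not overlap. It rose 1.45-fold in KO1 (log2 0.54, SE 0.0561, limma adjusted p = 8.74e-05). In KO2 the ratio was 1.17 (limma adjusted p = 0.0135), a call that was lost without control replicate B (log2 0.18, limma adjusted p = 0.0553, range over alternatives up to 0.0686) and after subtraction of neighbouring genes. SLC3A2, its heavy chain, was at 188 ± 8.32 TPM in control, 228 ± 13.7 TPM in KO1, with 198 ± 4.53 TPM for KO2 (SD, n = 3), and rose in KO1 by 0.28 (limma adjusted p = 0.00212). For KO2 its 95% confidence interval ran from -0.033 to 0.19. SLC7A6, which pairs with the same heavy chain to exchange cationic and neutral amino acids, rose 1.38-fold in KO1 and differed by 0.06 in KO2 (95% confidence interval -0.06 to 0.19). SLC1A5 rose 1.23-fold in KO1 and had 530, 608 and 532 TPM in KO2 against 454, 483 and 504 TPM in control. The KO2 call of SLC1A5 was lost without control replicate A (limma adjusted p = 0.0744) or B (0.0523), after quantile normalization (0.0563) and without the variance trend (0.0577). SLC7A5 has near-identical pseudogene copies, so that its reads may be shared.

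The glutamate carriers of the plasma membrane changed by more and differently in each clone. SLC1A3, the glial-type sodium-coupled glutamate carrier, had 3.8, 4.47 and 4.12 TPM in control, 1.1, 0.896 and 1.37 TPM in KO1 and 7.47, 6.46 and 5.91 TPM in KO2. KO1 was lowest and KO2 highest with no overlap, on 211, 55 and 312 reads per line. Against control it fell by 1.9 (log2) in KO1 (SE 0.183, limma adjusted p = 5.07e-05). KO2 had a log2 fold change of 0.68 (limma adjusted p = 0.0187), and this call was lost without control replicate A (0.62, limma adjusted p = 0.0632), control replicate C (0.68, 0.0501) or KO2 replicate A (0.58, 0.0731). The direct difference of 2.57 between the clones had a limma adjusted p of 1.19e-05. SLC1A1, the neuronal and epithelial glutamate carrier that also takes up cysteine, had 6.11, 3.98 and 3.86 TPM in control, 4.62, 3.39 and 3.41 TPM in KO1 and 1.31, 1.39 and 1.96 TPM in KO2. Only the KO2 libraries lay apart from control. The KO2 value fell by 1.57 (log2, SE 0.236, limma adjusted p = 0.000714) and differed by -0.27 in KO1 (95% confidence interval -0.8 to 0.25), and the clones differed by -1.3 (limma adjusted p = 0.00283). SLC6A6, the taurine carrier, fell in KO1 from 28.4 ± 1.66 to 20.6 ± 0.688 TPM (mean and SD of 3 libraries, limma adjusted p = 0.00221). SLC43A1, a leucine and phenylalanine carrier, rose in KO2 from 19.4 ± 1.26 to 26.9 ± 0.335 TPM (limma adjusted p = 0.000383) and stayed at 20.1 ± 0.696 TPM in KO1. SLC43A3, grouped here by its family number, is better known as a nucleobase carrier and was at 242 to 271 TPM in the line means. It overlaps another protein-coding gene on the same strand, whose mean level is 271 TPM.

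Among zinc carriers the importer SLC39A6 fell to about the same low level in both clones. Cells import zinc into the cytosol through SLC39 (ZIP) proteins and export it to organelles or the outside through SLC30 (ZnT) proteins. SLC39A6, a ZIP importer known from breast cancer cells as a target of oestrogen, had 83.1, 80.3 and 74.3 TPM in control, 24, 25.8 and 26.6 TPM in KO1 and 25.8, 22.6 and 25.7 TPM in KO2. The 6 knockout libraries sat at nearly the same level, all far below the 3 control libraries. KO1 held 32.2% and KO2 31.2% of the control level, with log2 fold changes of -1.64 and -1.68 (SE 0.071 each, limma adjusted p = 2.07e-07 and 1.83e-07). KO2 differed from KO1 by -0.05 (95% confidence interval -0.2 to 0.11). Its 50 nearest tested neighbours on chromosome 18 had median log2 fold changes of 0.09 and 0.08, so that the decrease was not shared by the region. Its RefSeq start base is A, as shown above.

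Changes in the other tested zinc carriers were smaller. The zinc carrier SLC30A3, below the minimum for a test, is described at the end. Of 11 tested SLC39 importers, KO1 had 3 higher and 3 lower and KO2 had 2 of each, and of 6 tested SLC30 exporters 1 rose in each clone. Called were 54.5% and 36.4% of the importers and 16.7% of the exporters in each clone, beside 34.3% and 30.4% of all tested genes. SLC39A10, the closest relative of SLC39A6 and its known partner at the plasma membrane, had 32.4, 29.5 and 29.5 TPM in control, 23.3, 26.8 and 23.8 TPM in KO1 and 27.8, 28 and 29.8 TPM in KO2. The decrease of 0.31 in KO1 (value -0.31, SE 0.0699) had a limma adjusted p of 0.00752, and the gene overlapped with control in KO2, where the difference was -0.09 (95% confidence interval -0.25 to 0.06). Its neighbours on chromosome 2 lay higher by 0.55 in KO1 and 0.5 in KO2. SLC30A7, a zinc carrier of the Golgi, rose in KO1 from 14.8 ± 0.359 to 20.4 ± 1.1 TPM (mean and SD of 3 libraries, limma adjusted p = 0.00103). In KO2 it was at 17.5 ± 1.21 TPM, a call lost under 7 of 21 alternatives. SLC39A8 had the same ratio of 1.18 in each clone and SLC39A14 ratios of 1.1 and 1.09, and the calls of each were lost under between 5 and 9 alternatives. SLC39A1, the most abundant zinc importer here at 236 TPM in control, was at 210 TPM in KO1 and 219 TPM in KO2. Its KO2 call was lost under 12 alternatives and its KO1 call under 1 (limma adjusted p = 0.0844), and subtracting the neighbouring genes turned the KO2 value to 0.0026.

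Among carriers of other metals, 1 of 8 was higher in KO1, and KO2 had 1 higher and 1 lower. That is 12.5% and 25% called, beside 34.3% and 30.4% of all tested genes. SLC31A1, the high-affinity copper importer, had 45.6, 41.6 and 46.1 TPM in control, 52, 53 and 52.1 TPM in KO1 and 56.5, 56.3 and 55.1 TPM in KO2. All knockout libraries were above control, and the rise was 1.18-fold in KO1 and 1.26-fold in KO2 (limma adjusted p = 0.00421 and 0.000574). The KO1 call was lost after subtraction of neighbouring genes (limma adjusted p = 0.0633, the highest over the alternatives). SLC49A4, a lysosomal carrier, was at 14.4 TPM in control and 11.6 TPM in KO2, a call lost under 4 of 21 alternatives. SLC11A2, the iron importer, was at 12.1 to 14 TPM and SLC48A1, a heme carrier, at 25.4 to 27 TPM in the line means, with no call.

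**Figure D3:**
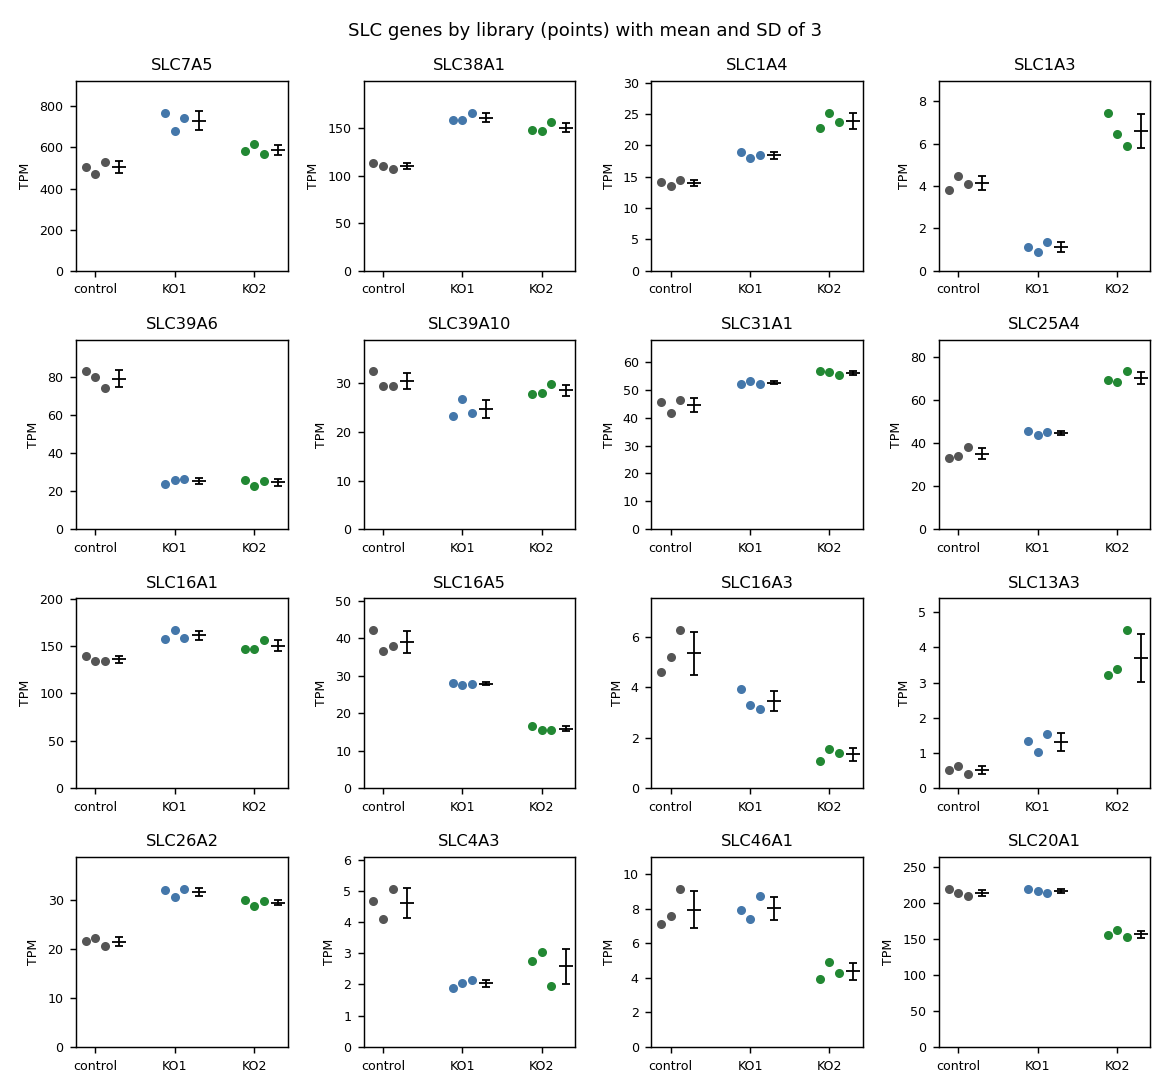
TPM of 16 SLC genes in each of the 9 libraries (points), with the mean and SD of 3 libraries beside them, and each vertical axis starting at 0. SLC39A6 is at the same low level in both clones, SLC25A4, SLC16A5 and SLC16A3 step from control through KO1 to KO2, and SLC1A3, SLC20A1 and SLC46A1 differ between the clones.

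Mitochondrial carriers of the SLC25 family exchange nucleotides, phosphate, amino acids, carboxylates and cofactors across the inner membrane. Of 40 tested, KO1 had 6 higher and 5 lower and KO2 had 8 higher and 7 lower, so that the family had no common direction. Called were 27.5% in KO1 and 37.5% in KO2, beside 34.3% and 30.4% of all tested genes. The largest rise in KO2 in the family was that of SLC25A4, the ADP/ATP exchanger typical of heart and muscle. It had 33.2, 33.9 and 38 TPM in control, 45.6, 43.9 and 45 TPM in KO1 and 69.2, 68.2 and 73.3 TPM in KO2. The 3 lines did not overlap. It rose 1.28-fold in KO1 (log2 0.36, SE 0.0585, limma adjusted p = 0.00127) and 2.01-fold in KO2 (log2 1, limma adjusted p = 1.49e-06), and KO2 lay above KO1 by 0.65 (limma adjusted p = 4.62e-05). The other ADP/ATP exchangers changed less: SLC25A5 was at 1450, 1520 and 1550 TPM in the line means, and SLC25A6 at 123, 120 and 138 TPM. The call of SLC25A5 in KO2 (ratio 1.07) was lost under 16 of 21 alternatives, and that of SLC25A6 in KO2 without control replicate B (limma adjusted p = 0.0538) and after subtraction of neighbouring genes (0.804, the highest over the alternatives). The coding sequences of these 3 genes are alike and SLC25A5 and SLC25A6 have pseudogenes, so that part of their reads may be shared.

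Of the mitochondrial carriers, 3 fell in both clones, SLC25A37, SLC25A39 and SLC25A15, which is 7.5%, beside 7.26% of all tested genes. Relatives with like roles were not called, namely the iron importer SLC25A28 (log2 -0.07 in KO1 and 0.27 in KO2) and SLC25A40 (-0.0061 and -0.03). SLC25A37, a mitochondrial iron importer, was at 66.1 ± 1.05 TPM in control, 54.4 ± 2.26 TPM in KO1, with 55 ± 1.5 TPM for KO2 (SD, n = 3). SLC25A39, which brings glutathione into mitochondria, was at 157 ± 5.43, 131 ± 3.01 and 134 ± 4.32 TPM. SLC25A15, the ornithine carrier, was at 51.9 ± 1.24, 42.3 ± 1.54 and 41.4 ± 2.82 TPM. SLC25A37's KO2 call was lost after subtraction of neighbouring genes (log2 -0.15, limma adjusted p = 0.0849). In each of these 3 genes the control libraries were all above the knockout libraries, the clones held between 79.9% and 85% of control, and the limma adjusted p lay between 0.000902 and 0.00329. SLC25A1, the citrate exporter, went apart between the clones, at 216 TPM in control, 185 in KO1 and 236 TPM in KO2, with a difference of 0.36 between them (limma adjusted p = 0.00238). SLC25A38, a glycine carrier needed for heme synthesis, rose in KO2 from 62.3 ± 3.02 to 88.8 ± 8.16 TPM (limma adjusted p = 0.000361). Its neighbours on chromosome 3 were higher by 0.38 in KO2. With the running median of neighbouring genes subtracted, its value was 0.12 (limma adjusted p = 0.218, range over alternatives up to that value). SLC25A51, the mitochondrial NAD carrier, had a ratio of 1.48 in KO1 and 1.01 in KO2, and its KO1 call was lost without control replicate C (limma adjusted p = 0.0513). SLC25A51 overlaps another protein-coding gene on the same strand, whose mean level is 145 TPM. SLC25A16, a carrier linked to coenzyme A, had 2.73, 3.42 and 2.17 TPM in control, 4, 3.76 and 4.42 TPM in KO1 and 4.37, 5.24 and 4.83 TPM in KO2. No knockout library overlapped with control. The values of 0.57 and 0.81 had limma adjusted p of 0.0304 and 0.00608. The KO1 call was lost under 6 of 21 alternatives, among them without control replicate A (0.0676) or C (0.0972) and without KO1 replicate A (0.0653) or C (0.0998), and the KO2 call after subtraction of neighbouring genes (0.31, limma adjusted p = 0.231).

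Monocarboxylate carriers of the SLC16 family changed in opposite directions by member. Some members of the family move lactate, pyruvate and ketone bodies with protons. SLC16A1 and SLC16A3 are among its lactate carriers, the latter adapted to export from glycolytic cells. Of 9 tested mono- and dicarboxylate carriers, KO1 had 3 higher and 2 lower and KO2 had 4 higher and 3 lower. That is 55.6% and 77.8% called, beside 34.3% and 30.4% of all tested genes. The 8 of them in the SLC16 family had 2 higher and 2 lower in KO1 and 3 of each in KO2. The counts on these 9 genes ranged from 2 to 5 higher and 1 to 3 lower in KO2 over the alternatives, and the higher side no longer held more in 6 of 21. SLC16A3 had 4.6, 5.2 and 6.28 TPM in control, 3.92, 3.3 and 3.15 TPM in KO1 and 1.07, 1.57 and 1.38 TPM in KO2. Control was highest, KO1 between and KO2 lowest, with no overlap. In KO2 it held 25% of the control level (log2 -2.01, SE 0.193, limma adjusted p = 4.11e-05). In KO1 it held 64.5% (limma adjusted p = 0.0304), a call that was lost without control replicate B (log2 -0.64, limma adjusted p = 0.0712), control replicate C (-0.51, 0.11), KO1 replicate B (-0.6, 0.0802) or KO1 replicate C (-0.56, 0.0976). CSNK1D overlaps SLC16A3 on the opposite strand at 48.3 TPM, and no source used here gives the strand setting of the counting.

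SLC16A5, a relative whose substrates are less well known, had 42.2, 36.6 and 37.9 TPM in control, 28.2, 27.5 and 27.9 TPM in KO1 and 16.6, 15.5 and 15.5 TPM in KO2. The lines again did not overlap and kept the order of SLC16A3. SLC16A5 fell by 0.48 (log2) in KO1 (SE 0.0652, limma adjusted p = 0.000433) and in KO2 by 1.29 (limma adjusted p = 5.99e-07). SLC16A4 had 6.15, 6.48 and 4.75 TPM in control, 3.06, 5.03 and 5.28 TPM in KO1 and 1.91, 2.61 and 2.03 TPM in KO2. Its KO2 libraries were lower by 1.41 (log2 -1.41, limma adjusted p = 0.00124), while KO1 overlapped with control (95% confidence interval -0.92 to 0.11). SLC16A1 had 140, 134 and 134 TPM in control, 158, 167 and 159 TPM in KO1 and 147, 147 and 157 TPM in KO2. It rose in KO1 by 0.24 (limma adjusted p = 0.00155). Its KO2 call, at 0.14, was lost without control replicate B (0.13, limma adjusted p = 0.0815), control replicate C (0.13, 0.079) or KO2 replicate C (0.11, 0.0717). That call was also lost without the variance trend (limma adjusted p = 0.0687) and with the replicate letter as a block (0.0603). BSG (basigin), the chaperone that brings SLC16A1 and SLC16A3 to the membrane, was at 494, 532 and 465 TPM in the line means and was called in neither clone. SLC16A6, known to carry ketone bodies, had ratios of 1.4 in KO1 (limma adjusted p = 0.0314) and 1.81 in KO2 (limma adjusted p = 0.00185), the former lost under 7 of 21 alternatives.

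SLC13A3, the sodium-coupled carrier of succinate and other dicarboxylates, had the largest ratio of the members tested. It had 0.524, 0.635 and 0.396 TPM in control, 1.34, 1.04 and 1.55 TPM in KO1 and 3.22, 3.39 and 4.49 TPM in KO2, on 25, 62 and 171 reads per line. The lines did not overlap. It rose 2.54-fold in KO1 (log2 1.34, SE 0.262, limma adjusted p = 0.00345) and 7.19-fold in KO2 (log2 2.85, limma adjusted p = 3.02e-05), and KO2 exceeded KO1 by 1.5 (limma adjusted p = 0.0023). The gene overlaps TP53RK on the same strand, whose mean level is 17.4 TPM, so that reads in the shared stretch cannot be told apart.

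**Figure D4:**
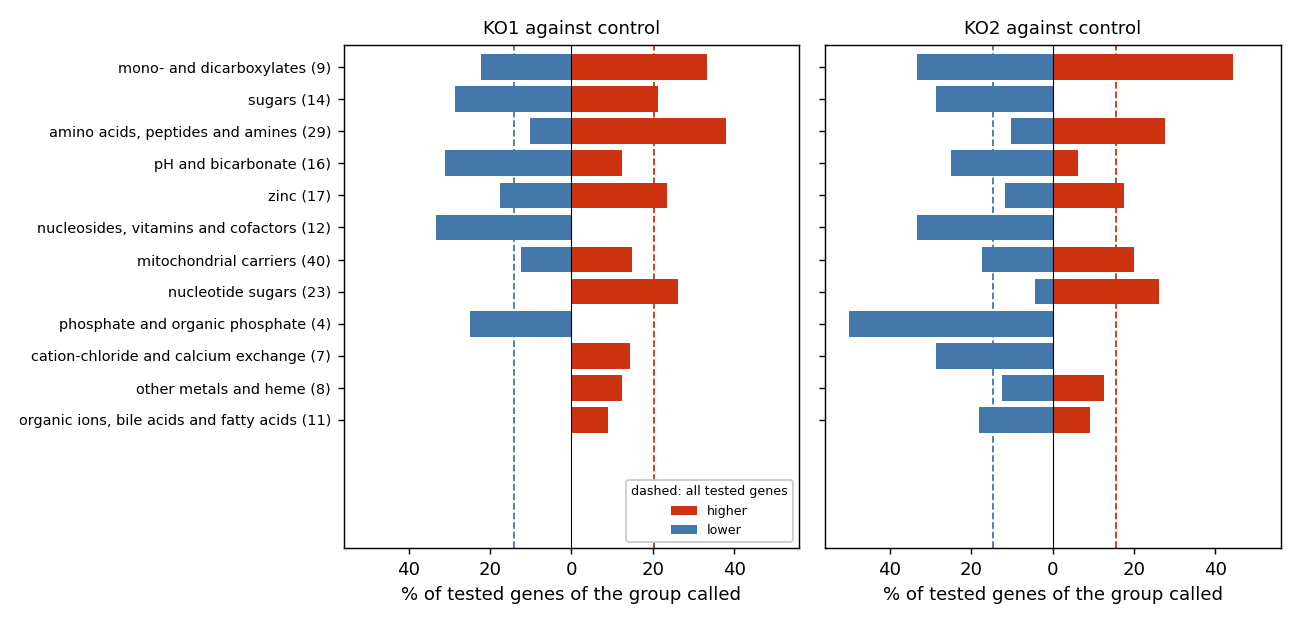
Share of the tested genes of each substrate group (number in brackets) called higher (right, red) and lower (left, blue) in KO1 and KO2 against control, limma adjusted p under 0.05. Dashed lines give the shares over all 14512 tested genes. Amino acid and nucleotide sugar carriers lean to the higher side in both clones, sugar carriers have no higher call in KO2, and carriers of nucleosides and vitamins and of phosphate have none in either clone. Groups of 4 to 9 genes move by large steps per gene.

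Sugar carriers had lower calls and no higher calls in KO2. Of 14 tested genes grouped as sugar carriers, KO1 had 3 higher and 4 lower. That is 21.4% and 28.6%, beside 20.2% and 14.1% of all tested genes. KO2 had 0 higher and 4 lower, where 15.6% of all tested genes were higher and 14.8% lower. In either direction 50% were called in KO1 and 28.6% in KO2, beside 34.3% and 30.4%. Of the 4 lower in KO2, SLC2A12 and SLC5A3 lost the call under 5 and 6 of 21 alternatives. SLC45A3, a proton-coupled sugar carrier first known from prostate, had 33.4, 37.5 and 38.6 TPM in control, 21.2, 22.9 and 22.2 TPM in KO1 and 24.3, 26.6 and 24.5 TPM in KO2. All knockout libraries lay below control. SLC45A3 fell by 0.72 (log2) in KO1 (SE 0.0703, limma adjusted p = 5.41e-05) and in KO2 by 0.53 (limma adjusted p = 0.000315). SLC2A12, a glucose carrier of low level, had 2.57, 2.45 and 1.82 TPM in control, 1.1, 0.87 and 1.23 TPM in KO1 and 1.17, 1.44 and 1.36 TPM in KO2. In KO1 this gene fell by 1.1 (limma adjusted p = 0.00475). In KO2 it differed by -0.77 (limma adjusted p = 0.0276), a call lost without control replicate A (-0.68, limma adjusted p = 0.0913), control replicate B (-0.71, 0.0869), KO2 replicate A (-0.69, 0.0846) or KO2 replicate C (-0.79, 0.0552). SLC2A3, the high-affinity glucose carrier, fell in KO2 from 16 ± 1.36 to 10.7 ± 1.82 TPM (mean and SD of 3 libraries, limma adjusted p = 0.00413).

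Other members of these families differed between the clones. SLC2A6, a lysosomal hexose carrier, rose in KO1 from 4 ± 0.256 to 6.38 ± 0.59 TPM (mean and SD of 3 libraries, limma adjusted p = 0.00189) and was at 4.01 ± 0.12 TPM in KO2. SLC5A6, which carries biotin and pantothenate though its family is known for sugars, rose 1.25-fold in KO1 (limma adjusted p = 0.00329) and was at 40 TPM in KO2 against 39.8 TPM in control. SLC5A3, the myo-inositol carrier, was at 20.7 TPM in control, 24 in KO1 and 17.7 TPM in KO2. Each of its calls against control was lost under between 6 and 9 of 21 alternatives, while the difference of 0.44 between the clones (limma adjusted p = 0.00115) was not lost under any of them. SLC5A3 overlaps MRPS6 on the same strand. SLC50A1, a sugar efflux carrier, fell in KO1 from 51.2 to 40.3 TPM (limma adjusted p = 0.00128) and was at 45.8 TPM in KO2. SLC2A4RG, a DNA-binding protein that is no carrier, was at 145 to 160 TPM in the line means and was not called.

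Carriers of bicarbonate, protons and anions had more members called lower than higher. Of 16 tested, KO1 had 2 higher and 5 lower and KO2 had 1 higher and 4 lower. Lower calls were 31.2% in KO1 and 25% in KO2, beside 14.1% and 14.8% of all tested genes. Called in either direction were 43.8% and 31.2%, beside 34.3% and 30.4%. The group's median log2 fold change was 0.094 in KO1 and -0.1 in KO2, so that the typical member hardly moved. Over the alternatives KO2 had 1 to 2 higher and 1 to 7 lower. Of the 6 tested genes with an SLC4 symbol, which include the non-carrier SLC4A1AP, 3 fell in each clone and none rose. That is 50% lower in each clone, on few genes. SLC4A3, a chloride-bicarbonate exchanger, had 4.67, 4.11 and 5.07 TPM in control, 1.9, 2.05 and 2.15 TPM in KO1 and 2.74, 3.05 and 1.95 TPM in KO2. The clones overlapped with each other and not with control. The decrease was -1.18 in KO1 (SE 0.188, limma adjusted p = 0.00106) and -0.86 in KO2 (limma adjusted p = 0.00645). SLC4A11, a proton and water carrier related to bicarbonate carriers, had 7.67, 6.73 and 7.7 TPM in control, 2.69, 3.03 and 3.4 TPM in KO1 and 2.66, 3.57 and 2.69 TPM in KO2. It fell by 1.28 and 1.32 in KO1 and KO2 (SE 0.158, limma adjusted p = 0.000231 and 0.000171). Its 50 nearest tested genes on chromosome 20 were lower by 0.54 and 0.55. With the running median of neighbouring genes subtracted, its decreases were -0.76 and -0.73 (limma adjusted p = 0.00476 and 0.00673, each the highest over the alternatives). SLC4A8, a sodium-driven chloride-bicarbonate exchanger, fell in KO2 by 0.83 (limma adjusted p = 0.00155), and differed by -0.16 in KO1.

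SLC4A2, the most abundant of these, was at 120, 130 and 112 TPM in the line means and was called in neither clone. SLC26A2, the sulfate carrier that supplies sulfated glycans, had 21.6, 22.4 and 20.6 TPM in control, 32.1, 30.8 and 32.4 TPM in KO1 and 30, 28.9 and 29.8 TPM in KO2. All 6 knockout libraries lay above the control libraries. It rose 1.48-fold in KO1 (log2 0.56, SE 0.0545, limma adjusted p = 5.24e-05) and 1.37-fold in KO2 (log2 0.46, limma adjusted p = 0.000164). SLC9A5, a sodium-proton exchanger best known in brain, fell in KO1 from 10.5 ± 0.208 to 7.85 ± 0.323 TPM and in KO2 to 6.91 ± 0.343 TPM (SD, n = 3, limma adjusted p = 0.00437 and 0.000501).

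The phosphate carrier SLC20A1 changed in KO2. It had 219, 214 and 210 TPM in control, 220, 217 and 214 TPM in KO1 and 155, 162 and 153 TPM in KO2. Control and KO1 libraries overlapped and all KO2 libraries lay below both. Its decrease in KO2 was -0.46 (SE 0.0344, limma adjusted p = 8.67e-06) and differed by 0.02 in KO1 (95% confidence interval -0.06 to 0.09), with -0.47 between the clones (limma adjusted p = 1.41e-05). Its relative SLC20A2 was at 16.4 to 17.8 TPM in the line means and was not called. SLC17A5, which exports sialic acid from lysosomes, was at 10.9 TPM in control and 7.81 TPM in KO1 (log2 -0.49, limma adjusted p = 0.0144), a call lost without control replicate A (-0.42, limma adjusted p = 0.0539, the highest over the alternatives).

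Carriers of nucleosides, vitamins and cofactors had no member called higher in either clone, where 20.2% and 15.6% of all tested genes were. Alternatives gave up to 1 higher call in each clone. In either direction 33.3% were called in each clone, near the 34.3% and 30.4% of all tested genes. Of 12 tested, 4 fell in each clone, beside 14.1% and 14.8% lower of all tested genes, and 1 of them, the vitamin C carrier SLC23A2, fell in both. SLC23A2 lies in the lowered stretch of chromosome 20, and after subtraction of its neighbours its values were 0.16 in KO1 and 0.01 in KO2. SLC29A3, a nucleoside carrier of lysosomes, had 2.22, 2.01 and 1.71 TPM in control, 0.9, 0.652 and 1.01 TPM in KO1 and 1.18, 1.02 and 1.7 TPM in KO2. SLC29A3 fell by 1.23 (log2) in KO1 (SE 0.27, limma adjusted p = 0.0064) and differed by -0.63 in KO2, where its neighbours on chromosome 10 lay higher by 0.58. SLC29A2, a plasma membrane nucleoside carrier, fell in KO1 from 37.6 ± 1.49 to 27.3 ± 2.51 TPM (mean and SD of 3 libraries, limma adjusted p = 0.00363) and was at 39.7 ± 4.66 TPM in KO2. SLC46A1, the proton-coupled folate carrier, had 7.12, 7.56 and 9.16 TPM in control, 7.91, 7.4 and 8.74 TPM in KO1 and 3.95, 4.93 and 4.27 TPM in KO2. KO2 alone was low, by -0.86 (SE 0.134, limma adjusted p = 0.000924), with -0.87 between the clones. The riboflavin carrier SLC52A2 was the most abundant of the group, at 83.8, 84.1 and 88.3 TPM in the line means, and was not called.

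Nucleotide sugar carriers of the SLC35 family, which feed glycosylation in the Golgi and endoplasmic reticulum, had 6 members higher and 0 lower in KO1 and 6 higher and 1 lower in KO2 of 23 tested. Higher calls were 26.1% in each clone, beside 20.2% of all tested genes in KO1 and 15.6% in KO2, and the higher side held the larger count under every alternative run. Changes were small, with group medians of 0.13 and 0.11. SLC35F6, SLC35A4 and SLC35E1, relatives without a settled nucleotide sugar substrate, rose in both clones. SLC35E1 overlaps another protein-coding gene on the same strand, whose mean level is 37 TPM. SLC35F6 had 39.9, 33.8 and 33.3 TPM in control, 51.6, 50.6 and 56 TPM in KO1 and 44, 43.5 and 43.9 TPM in KO2. It rose by 0.57 and 0.3 (limma adjusted p = 0.000276 and 0.0104), and it overlaps CENPA on the same strand. SLC35A4 rose by 0.4 and 0.19, less than the median of its nearest tested genes on chromosome 5, at 0.64 and 0.28. The running median of neighbouring genes is taken over a different set. With that running median subtracted, the SLC35A4 values of 0.11 and 0.08 had limma adjusted p of 0.0541 and 0.157. SLC35B2, which carries the sulfate donor PAPS into the Golgi, was the most abundant at 107, 115 and 104 TPM in the line means and was not called.

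Carriers of organic ions and of chloride had low shares called in KO1, on few genes, and shares near that of all tested genes in KO2. Of 7 tested carriers of cation-chloride and calcium exchange, 1 was higher in KO1 and 2 were lower in KO2. That is 14.3% and 28.6% called. Of 11 carriers of organic ions, bile acids and fatty acids, 1 was higher in KO1, and KO2 had 1 higher and 2 lower. The shares called were 9.09% and 27.3%, beside 34.3% and 30.4% of all tested genes. The 2 that fell are the carnitine carrier SLC22A5 and its relative SLC22A4, side by side on chromosome 5, 25.5 kb apart. SLC22A4 had 5.42, 5.46 and 4.74 TPM in control, 5.39, 5.68 and 4.64 TPM in KO1 and 3.42, 3.24 and 3.18 TPM in KO2. SLC22A5 had 4.07, 4.14 and 3.85 TPM in control, 4.1, 3.32 and 3.55 TPM in KO1 and 2.61, 2.56 and 2.56 TPM in KO2. Both lay below control and KO1 in each KO2 library, and they fell in KO2 by 0.66 and 0.64 (limma adjusted p = 0.00287 and 0.00474). Their 50 neighbours had a median of -0.0097 in KO2. SLC27A4, a fatty acid carrier and the most abundant of the group, rose in KO1 from 47.1 ± 6.04 to 60.5 ± 0.909 TPM (mean and SD of 3 libraries, limma adjusted p = 0.00797) and overlapped with control in KO2. Its relative SLC27A3 was at 2.5 TPM in control and 4.77 TPM in KO2 (log2 0.89, limma adjusted p = 0.0155), a call lost without control replicate B (0.0551), KO2 replicate A (0.0608) or KO2 replicate B (0.0535). SLC27A3 overlaps INTS3 on the same strand, whose mean level is 41.5 TPM. SLC12A2, the sodium-potassium-chloride cotransporter, had 8.61, 7.12 and 7.67 TPM in control, 11, 11.5 and 12.2 TPM in KO1 and 10.3, 8.73 and 9.17 TPM in KO2, and rose in KO1 by 0.57 (limma adjusted p = 0.00221). SLC12A4, a potassium-chloride cotransporter, fell in KO2 from 26 ± 1.14 to 19.8 ± 1.27 TPM (mean and SD of 3 libraries, limma adjusted p = 0.00127), and it overlaps LCAT on the same strand.

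Some members sit where many neighbouring genes were shifted together in a clone. The median log2 fold change of the 50 nearest tested genes was beyond 0.25 for 16 members, of which 9 were called in KO1 and 7 in KO2. That is 56.2% and 43.8% of them, beside 56 (32%) and 60 (34.3%) of the remaining 175 members. The groups compared here are small and unequal, and the difference in share was not tested. Within them the members did not follow one pattern. SLC4A11 was lower than its lowered neighbours, SLC23A2 was close to its neighbours in KO2, and SLC39A10 and SLC29A3 were lower where neighbours were higher. With neighbours subtracted, SLC39A10 was lower by 0.8 in KO1 (limma adjusted p = 1.2e-05) and 0.47 in KO2 (0.000401), and SLC29A3 by 1.22 and 1.15 (limma adjusted p = 0.0065 and 0.0105). Other members were also lower after this subtraction, among them SLC6A6 (-0.48 and -0.5, limma adjusted p = 0.00405 and 0.00387) and SLC26A6 (-0.35 and -0.56, 0.005 and 0.000434). SLC25A16 in KO1 (0.53, 0.0458) and SLC35G1 in KO2 (0.3, 0.0386) were higher. Whether copy number differs between the lines was not tested.

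**Figure D5:**
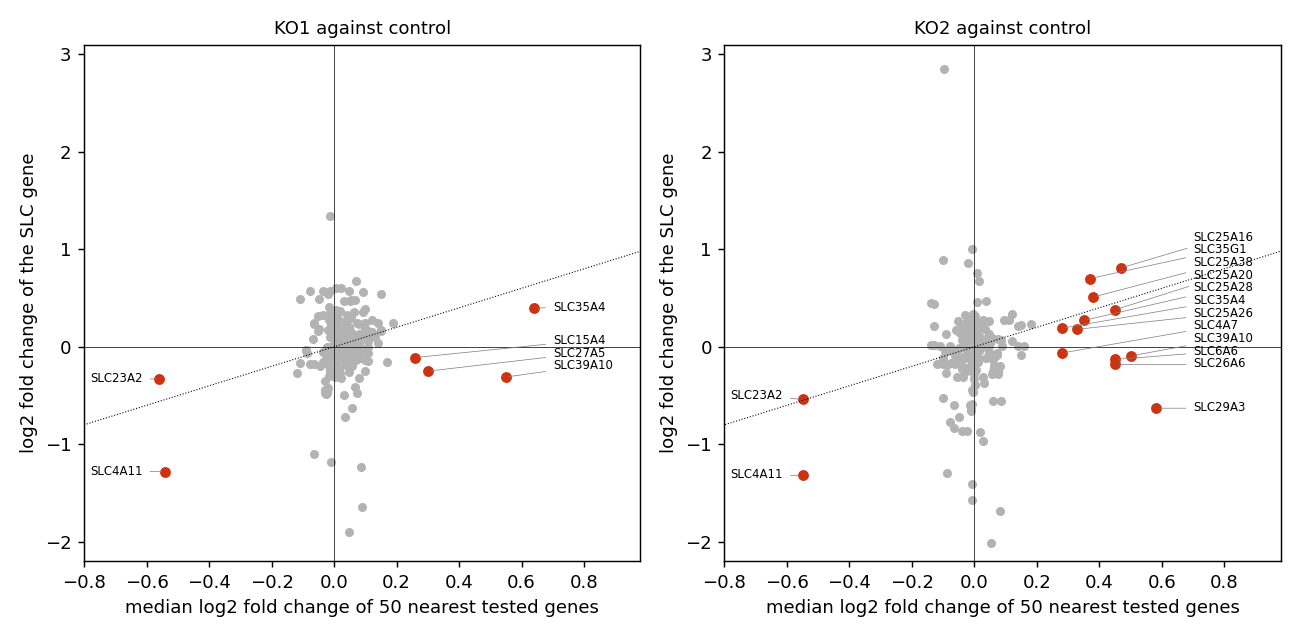
Log2 fold change of each tested SLC gene (vertical) against the median of its 50 nearest tested genes that are no SLC members (horizontal), for KO1 and KO2 against control. Named red points have neighbours beyond 0.25, and the dotted line marks equal values. Most SLC genes lie near 0 on the horizontal axis, SLC39A10 and SLC29A3 lie below the line, and SLC23A2 and SLC25A20 lie near it in KO2.

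Members with either start base were among those called. Of the 76 members whose RefSeq start is A, 31.6% were called in KO1 and 31.6% in KO2, beside 36.3% and 32.5% of all tested genes with an A start. Of the 62 with a G start, 40.3% and 38.7% were called, beside 35.8% and 30.3%. Median log2 fold changes of A-start members were 0.09 in KO1 and 0.03 in KO2, and those of G-start members -0.0062 and -0.02. Over all tested genes they were 0.04 and 0.0049 for an A start and 0.04 and 0.0034 for a G start. Of the 15 members with a C start, 0 were called in KO1 and 4 (26.7%) in KO2, beside 34.5% and 31.1% of all tested genes with a C start. Promoter windows of 300 bases, 250 before to 50 after the start, were searched on both strands for short motifs, as a description of sequence only. TGATGNAA, the core that ATF4 binds on genes of the amino acid response, was in 3 of 24 amino acid carriers, SLC1A3, SLC38A1 and SLC3A2, which is 12.5%, beside 1.7% of 10318 promoters. TGCACNC or TGCGCNC, the core of the metal response element, was in 33.3% of 15 zinc carriers, beside 39.1% of all promoters. ACGTG, the core of the hypoxia response element, was in 27.9% of members and 27.2% of all, and CACGTG, which contains it, in 12.3% and 10.4%.

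Proteins that work with SLC carriers were taken as 4 further lists. Of 24 tested subunits of the sodium, potassium and proton pumps, which make the gradients that drive many carriers, KO1 had 10 higher and 0 lower and KO2 had 2 of each, and KO2 lay below KO1 in 10. Called were 41.7% in KO1 and 16.7% in KO2, beside 34.3% and 30.4% of all tested genes. Lower in KO2 than in KO1 were 41.7%, beside 16.9% of all tested genes. After median centring the KO1 counts were 7 higher and 3 lower. ATP6V1A, the catalytic subunit of the proton pump, was at 45.2, 62.9 and 53.5 TPM in the line means and rose by 0.48 and 0.24 (limma adjusted p = 4.27e-05 and 0.00245). Of 12 accessory proteins, KO1 had 3 higher, and KO2 had 2 higher and 1 lower. That is 25% called in each clone, beside 34.3% and 30.4% of all tested genes. EMB (embigin), a chaperone of monocarboxylate carriers, rose by 0.26 and 0.28 (limma adjusted p = 0.0105 and 0.00807). Of 43 genes classed as solute carriers without an SLC symbol, KO1 had 11 higher and 5 lower, and KO2 had 7 higher and 6 lower. The shares called, 37.2% and 30.2%, lay near the 34.3% and 30.4% of all tested genes. SPNS2, the exporter of sphingosine-1-phosphate, was at 37.6 TPM in control, 5.46 in KO1 and 6.89 TPM in KO2, and fell by 2.78 and 2.45 (limma adjusted p = 7.22e-08 and 1.62e-07). SLCO1B3, an organic anion carrier best known in liver, had 3.76, 2.61 and 3.49 TPM in control, 0.367, 0.125 and 0.356 TPM in KO1 and 2.04, 1.95 and 2.31 TPM in KO2. KO1 was lowest, on 7 reads, and it fell there by 3.68 (log2, limma adjusted p = 9.57e-05), with -0.63 in KO2 (limma adjusted p = 0.253).

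Of 26 tested regulators of SLC genes and carriers, KO1 had 9 higher and 6 lower, and KO2 had 8 higher and 4 lower. That is 57.7% and 46.2% called, beside 34.3% and 30.4% of all tested genes. ATF4, the factor of the amino acid response, was at 554, 499 and 605 TPM in the line means, lower in KO1 by 0.15 and higher in KO2 by 0.13 (limma adjusted p = 0.0113 and 0.0247). TXNIP, an arrestin-like protein that takes glucose carriers off the membrane, rose from 27.5 TPM in control to 38 TPM in KO1 and 49.2 TPM in KO2 (limma adjusted p = 0.00116 and 2.39e-05). TFAM, the mitochondrial transcription factor, was at 51.3, 61 and 95.7 TPM and rose by 0.25 and 0.9 (limma adjusted p = 0.00169 and 4.04e-07).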

How the data were processed

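The deposited file holds log2 TPM values made by the authors for 15258 genes in 9 input libraries, and no sample column was left unused (0). Per the submitters' processing notes the build was hg38, with edgeR 3.12.1 and R 3.3.3 beside featureCounts, and with deepTools 3.0.2, HISAT2 2.0.4 and SAMtools 1.7. No source used here gives the role of each tool, the annotation, the strand setting or how genes were filtered. The values fit whole reads plus a small prior before the logarithm. Reads came out whole within 1e-06 reads for 100% of genes, which gave a depth of 7848089 to 11393206 reads per library. Symbols and gene models came from GENCODE 44, with 120 identifiers unmatched. limma-trend (limma 3.58.1, R 4.3.3) was fitted to the deposited values over all 9 libraries leaving 6 residual degrees of freedom. Genes entered at a mean of 1 TPM or more, 14512 in all, and two-sided p-values were adjusted by Benjamini-Hochberg over them and called under 0.05. The fit was tested on simulated data. Fold changes of genes near 0 depend on the prior. Members, the 12 substrate groups (by family number) and the 4 partner lists were chosen with earlier results of these data known.

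Named genes were PCIF1, the 8 highest and 8 lowest members called in both clones without overlap, for each clone the 4 highest and 4 lowest also called between clones, the most abundant and the 2 most changed members of each group, any member with at least 20 reads in 1 line and none in another, the melanosome carriers, and the most abundant and 2 most changed genes of each partner list. Not all genes that the rule takes are given with values. Other named genes were chosen after their values were seen. Alternatives were a pseudocount of 1 or 5, no filter or 5 TPM, quantile normalization or median centring, a fit without the variance trend, a fit restricted to the pair of lines in question, a block for the replicate letter, a GC and length trend, a running median of 51 neighbouring genes subtracted, each library left out, and, chosen after seeing the data, limma-voom on recovered reads. Same-letter libraries did not deviate together (correlations -0.074 to 0.037), and no 2 replicates were alike within counting noise, with chi-square values of 1.22 to 3.71 for each degree of freedom. Values with neighbours subtracted use the running median of 51 genes, not the median of the nearest tested genes. Of the members, 81 overlap another gene and 23 do so on the same strand. Intervals and limits cover counting error only where reads are concerned. The values of 1 member are not reported here.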

Additional observations from a re-analysis of the deposited data

Results flagged for a closer look

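Of the 61 SLC genes called between the clones, 41 are among those considered for naming, and in these the effects of the 2 knockout clones differed from each other, by limma adjusted p of the direct contrast of KO2 against KO1, which is the test of the difference itself. Values are log2 differences between the clones, on 3 libraries each, beside a share of 28.7% of all tested genes called in this contrast. Groups of 3 libraries are too small for a test of single outlying libraries.

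Higher in KO2 were SLC1A3 (2.57), SLC13A3 (1.5), SLC25A4 (0.65), SLC29A2 (0.54), SLC35G1 (0.45) and SLC43A1 (0.42). Smaller differences in this direction were found in SLC1A4 (0.37), SLC25A1 (0.36), SLC25A38 (0.36), SLC6A6 (0.34), SLC44A1 (0.24), SLC39A10 (0.21), SLC25A6 (0.2) and SLC50A1 (0.19). SLC1A3, the glutamate carrier, was below control in KO1 and above it in KO2, and SLC25A4 and SLC13A3 were above control in both clones. Calls between the clones were lost in 13 of 21 alternatives for SLC30A7, in 10 for SLC23A2 and for SLC39A10, in 9 for SLC38A2, in 8 for SLC50A1, in 7 for SLC36A1, in 6 for SLC44A1 and in 5 for SLC12A4. The neighbouring genes of SLC25A38, SLC35G1 and SLC6A6 were also higher in KO2 than in KO1, by medians of 0.28, 0.41 and 0.37. With the running median of neighbouring genes subtracted, the differences were 0.061, 0.094 and -0.021, with limma adjusted p of 0.545, 0.499 and 0.897. For SLC25A6 the same subtraction gave 0.082 (limma adjusted p = 0.194).

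Lower in KO2 were SLC16A3 (-1.38), SLC1A1 (-1.3), SLC25A27 (-1.13), SLC16A4 (-1.0), SLC46A1 (-0.87), SLC16A5 (-0.82), SLC22A4 (-0.67), SLC2A6 (-0.67) and SLC4A8 (-0.66). Further members lower in KO2 were SLC25A51 (-0.56), SLC38A7 (-0.54), SLC22A5 (-0.5), SLC20A1 (-0.47), SLC5A3 (-0.44), SLC7A6 (-0.41) and SLC36A1 (-0.4). The smallest differences in this direction were those of SLC5A6 (-0.32), SLC7A5 (-0.31), SLC35F6 (-0.27), SLC12A4 (-0.24), SLC30A7 (-0.22), SLC35A4 (-0.21), SLC23A2 (-0.21), SLC4A2 (-0.21), SLC3A2 (-0.2), SLC43A3 (-0.17) and SLC38A2 (-0.15). The nearest tested genes of SLC35A4 had a median of -0.36 in KO2 against KO1, further down than SLC35A4 itself. With the running median of neighbouring genes subtracted, its difference was -0.029 (limma adjusted p = 0.628). The same subtraction gave -0.057 for SLC43A3, -0.15 for SLC23A2 and -0.092 for SLC38A2 (limma adjusted p = 0.278, 0.133 and 0.193). SLC16A3, SLC16A4 and SLC16A5, of the monocarboxylate family, are all among the lower ones, and SLC2A6 and SLC7A6 were higher than control in KO1 and near it in KO2.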

How the results depend on the processing

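The counts of SLC genes called were within 1.5 times the reported ones under each alternative run. Leaving out single libraries gave 53 to 70 calls in KO1 (reported 65), 47 to 67 in KO2 (67), 42 to 58 between the clones (61) and 23 to 32 in both clones (32). With the replicate letter as a block the counts were 59, 59, 49 and 26, and the letters did not pair the samples. Calls against control lost under this block include those of SLC16A3, SLC38A2, SLC5A3 and SLC66A2 in KO1 (limma adjusted p = 0.052, 0.0579, 0.0618 and 0.0733) and of SLC16A1, SLC2A12, SLC25A5, SLC39A1, SLC39A14 and SLC5A3 in KO2 (0.0603, 0.0583, 0.0869, 0.067, 0.0721 and 0.0603). The split of calls moved with the scaling: in KO1 from 38 higher and 27 lower to 32 and 37 after median centring, 33 and 36 after quantile normalization and 34 and 40 with limma-voom, between the clones from 22 and 39 to 25 and 28 after median centring, and in both clones from 19 and 13 to 16 and 16, 15 and 16, and 16 and 21 in the same order, and to 12 and 16 after subtracting neighbours. Of 150 calls of genes considered for naming, 88 passed in every alternative, 58 were lost in at least 1, and 6 values turned sign after subtracting the running median of neighbours. These were SLC23A2 at 0.16 in KO1 and 0.01 in KO2, SLC25A20 at -0.0032 in KO2, SLC39A1 at 0.0026 in KO2, SLC66A2 at -0.038 in KO1 and SLC6A6 at -0.021 between the clones. Depth limits members under 1 TPM and those near it, such as SLC13A3 in control with 25 reads over 3 libraries. The planned count tests on whole reads with edgeR and DESeq2 were not run, since the deposited values are log2 TPM, and limma-voom on recovered reads stood in for them.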

Other observations

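The 16 members below the minimum of 1 TPM were counted by recovered reads summed over the 3 libraries of a line, with exact 95% counting intervals of the ratio of read rates that cover counting error only. SLC19A3, a thiamine carrier, had 99 reads in control and 31 in each clone, ratios of 0.313 (0.202 to 0.472) in KO1 and 0.337 (0.218 to 0.509) in KO2. SLC44A5, a relative of the choline carriers, had 12, 42 and 39 reads, ratios of 3.49 (1.81 to 7.29) and 3.5 (1.8 to 7.34). SLC16A9, a carnitine carrier of the monocarboxylate family, had 6, 36 and 29 reads, ratios of 5.99 (2.5 to 17.4) and 5.21 (2.12 to 15.3). These 3 genes were on the same side of control in both clones.

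SLC30A3, a zinc carrier of synaptic vesicles, had 2, 12 and 31 reads, with ratios of 5.99 (1.33 to 55.1) and 16.7 (4.25 to 144). SLC2A10, a glucose carrier, had 9 reads in control, 24 in KO1 and 0 in KO2, so that against 3 reads per line it was at least 7.41-fold lower in KO2 than in KO1 and at least 2.79-fold lower than in control. It lies 25.2 kb from SLC13A3, which was higher in KO2. SLC47A1, an exporter of organic cations, had 15, 11 and 0 reads and was at least 4.64-fold lower in KO2 than in control. SLC12A8, of the cation-chloride family, had 62, 42 and 17 reads, with a ratio of 0.295 (0.162 to 0.512) in KO2. SLC12A7 had 0, 1 and 0 reads, at or under the limit of 3 reads in each line. The other 8 members below the minimum had ratios between 0.557 and 1.84.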
